A study of Homo sapiens with 24 samples.

Results

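The genes described here are 10 genes of cellular iron handling, chosen by their symbols from the 60675 Ensembl identifiers of the count table. They are the uptake genes TFRC, STEAP3 and SLC11A2, the ferritin chains FTH1 and FTL, the ferritin receptor NCOA4, the exporter SLC40A1, and the iron sensors ACO1, IREB2 and FBXL5. RNA-sequencing of ribosomal RNA-depleted total RNA was performed on MIA PaCa-2, an established line of human pancreatic carcinoma cells. C/EBPδ-inducible cells carried a lentiviral Tet-On vector from which doxycycline drives expression of a CEBPD cDNA, together with the mVenus fluorescent protein, and were used as a pool of 3 clones. CTRL cells carried the vector without the cDNA, with mCherry. Both lines were harvested after 0, 8, 24 and 48 h with doxycycline at 2 µg/mL, in 3 replicate wells per group, which gives 8 groups and 24 libraries. The sample labels list the dose at 0 h too, whereas the methods describe cells without doxycycline, and the 0 h cells were used as untreated. Wells seeded in parallel are the replicates, so that p-values measure the spread between wells of 1 experiment. The lines differ in the cDNA, the fluorescent protein and their clonal origin, and these cannot be told apart in a comparison of the lines. Culture time and doxycycline change together within a line.

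Iron bound to transferrin enters cells through the transferrin receptor, is reduced in the endosome and leaves it through a divalent metal transporter. Iron that is not used is kept in ferritin, a shell of heavy and light chains, and ferroportin carries iron out of the cell. When iron is scarce, the iron regulatory proteins bind short hairpins called iron-responsive elements, which blocks translation of the ferritin and ferroportin mRNAs and protects the mRNA of the transferrin receptor from decay. Ferritin is therefore controlled largely at translation, which counts of mRNA do not measure.

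Hairpins found in the member mRNAs are shown because iron status acts on transcripts through such sites. The MANE transcripts of GENCODE 44 were searched for a C, 5 bases, the loop CAGTGN and 5 bases that pair with the 5 bases before the loop, on the transcript strand only and with G–T pairs allowed. Of these 19061 MANE transcripts, 0.0997% held this motif in the 5′ UTR and 0.635% in the 3′ UTR. For the members, their other annotated coding transcripts were searched too. Of the 10 members, 4 held it, at 7 sites in all, each of which is printed with 29 bases of GRCh38 and its loop in capitals. The sites of FTH1 (chr11:61967574-61967602, minus strand), FTL (chr19:48965335-48965363, plus strand) and SLC40A1 (chr2:189580661-189580689, minus strand) lie in the 5′ UTR, and that of SLC40A1 is in 1 of its 5 coding transcripts. The 4 sites of TFRC lie in the 3′ UTR on the minus strand of chromosome 3, at 196050979 to 196051007, 196050575 to 196050603, 196050510 to 196050538 and 196050463 to 196050491. The letters of the FTH1 and FTL sites are shown first, since both ferritin chains carry the loop near the start of the transcript.
FTH1: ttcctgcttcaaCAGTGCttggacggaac
FTL: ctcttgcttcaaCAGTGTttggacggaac
SLC40A1: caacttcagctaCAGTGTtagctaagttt
TFRC site 1: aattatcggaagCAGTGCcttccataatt
TFRC site 2: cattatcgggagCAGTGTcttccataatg
TFRC site 3: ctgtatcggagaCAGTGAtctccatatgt
TFRC site 4: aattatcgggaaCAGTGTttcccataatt
The other 6 members held no match. This says only that these letters were not found, within single exons, in the UTRs of their annotated coding transcripts. All 5 pairs had to form, so the search misses hairpins with a mismatch or a bulge among these pairs. Members without a match, SLC11A2 among them, are therefore not shown to lack an iron-responsive element, and further elements of TFRC could be missed. A match describes the letters and is not a measurement of binding.

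Totals ranged from 12731237 to 22598595 counts per library (median 18959363.5), and 3 counts corresponded to between 0.13 and 0.236 CPM, that is, counts scaled to a common library size with the TMM method. This floor covers counting error only. CEBPD stood at 1.32 to 4.42 CPM over the CTRL libraries, at 18.9 to 23.4 CPM in untreated C/EBPδ-inducible cells and at 200 to 321 CPM in them with doxycycline, and counts do not separate the cDNA from the endogenous gene. CEBPD was therefore higher in the inducible line before doxycycline. The chi-square statistic per gene between replicates lay between 1.66 and 16.7, from 5.93 to 16.7 among the CTRL libraries at 8 h, from 3.41 to 8.36 among those at 48 h, and at 12.3 and 12.5 between C/EBPδ-inducible replicate 3 at 8 h, the library with the fewest counts, and the other two. All other pairs of replicates were at or below 4.06. Calls are therefore given with the effect of leaving libraries out where it changes them. Of the epithelial markers KRT7, KRT8, KRT18, KRT19 and EPCAM, the 3 keratins KRT8, KRT18 and KRT19 had a median over 1 CPM, and the sum over the 5 genes was 2064 to 2948 CPM in CTRL and 114 to 208 CPM in C/EBPδ-inducible libraries. Acinar, endocrine and erythroid markers had at most 3 counts in any library, and the sums of the fibroblast, leukocyte and hepatocyte markers reached 4.98, 2.53 and 0.799 CPM. CDKN2A, which MIA PaCa-2 cells are known to lack, reached 0.895 CPM (17 counts) in 1 library.

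Before doxycycline, the C/EBPδ-inducible line had 0.46 times the FTH1 mRNA of CTRL cells and 2.02 times the STEAP3 mRNA, with TFRC lower and SLC11A2 higher. With doxycycline, both ferritin chains rose in C/EBPδ-inducible cells at 24 and 48 h while their changes in CTRL cells did not pass, and TFRC fell in CTRL cells at 48 h while its change in C/EBPδ-inducible cells did not pass. These 3 genes were the members whose change from 0 h differed between the lines. Transcripts were compared with the quasi-likelihood test of edgeR, and genes with a Benjamini-Hochberg FDR under 0.01 over all genes tested are called DEGs. The keratin sum moved with the line, and its part in these results was not tested. In bulk libraries of a pool of clones, fewer expressing cells and less mRNA per cell cannot be told apart.

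**Figure D1:**
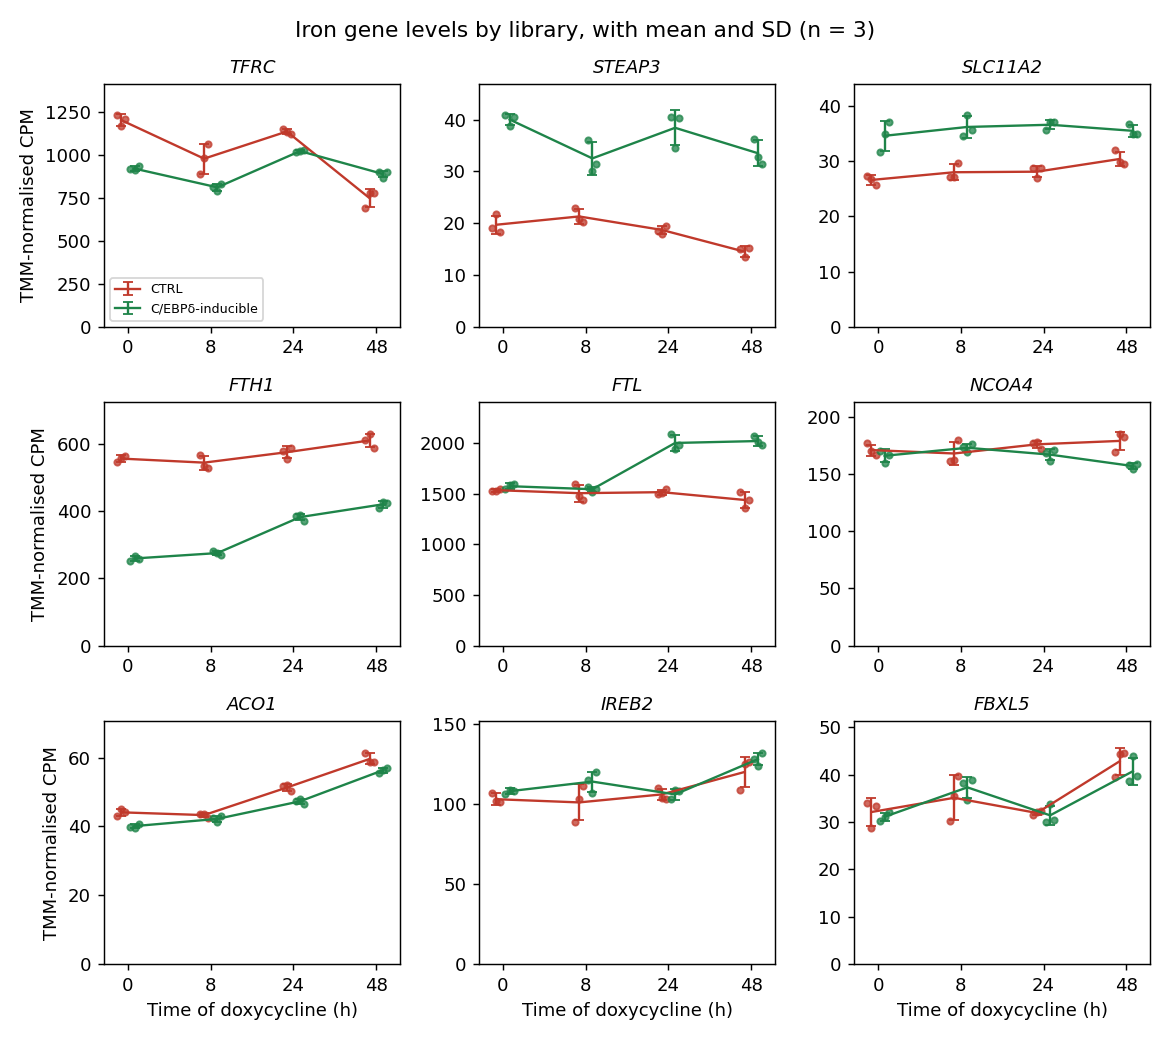
TMM-normalised CPM (linear axes from 0) of the 9 members that passed the filter on low counts, against hours of doxycycline, in CTRL (red) and C/EBPδ-inducible cells (green). Points are libraries, and lines join the means with SD (n = 3). FTH1 libraries of the lines stayed apart at every time, from 528 to 629 CPM in CTRL and from 252 to 427 CPM in C/EBPδ-inducible cells, while TFRC crossed between 24 and 48 h.

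Levels between genes were compared as CPM per kb of the MANE transcript. For TFRC this transcript is 5.01 kb long, while all its annotated exons come to 17.4 kb. Of the FTH1 exons, 63.2% overlap BEST1 on the other strand. The effect of either on these levels was not tested. Over the 24 libraries the median was 1776 CPM per kb for FTL, 397 for FTH1, 185 for TFRC, 49 for NCOA4 and 17.2 for IREB2. The lower members were FBXL5 at 9.73, SLC11A2 at 7.7, STEAP3 at 6.21, ACO1 at 6.15 and SLC40A1 at 0.0144 CPM per kb. Neighbours whose ranges over libraries overlapped were FTH1 (210 to 523) with TFRC (138 to 246), FBXL5 (8.25 to 12.8) with SLC11A2 (6.19 to 9.27), and STEAP3 (3.14 to 9.58) with SLC11A2 and ACO1 (5.33 to 8.25). FTL, NCOA4, IREB2 and SLC40A1 overlapped no neighbour in this order. STEAP3 spread most on this scale among the 9 expressed members, with a highest library at 3.05 times its lowest, followed by FTH1 at 2.49 times, and NCOA4 spread least at 1.2 times.

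At 0 h the lines were compared over 15317 genes, of which 43.9% were DEGs. Of the 9 members tested, 4 were DEGs, with STEAP3 and SLC11A2 above and TFRC and FTH1 below the CTRL level. Their median log2 fold change was −0.06, and that of all genes was 0.01. At 8 h the same 4 members were DEGs against 31.8% of 15561 genes, at 24 h 5 were DEGs with FTL added as higher, against 46.9% of 15700, and at 48 h 5 were DEGs against 38.3% of 15592. At each time the number of member DEGs was within 2 genes of that share of 9. The size of the differences, shown in the plot of fold changes between the lines, sets single members apart more than the count does.

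**Figure D2:**
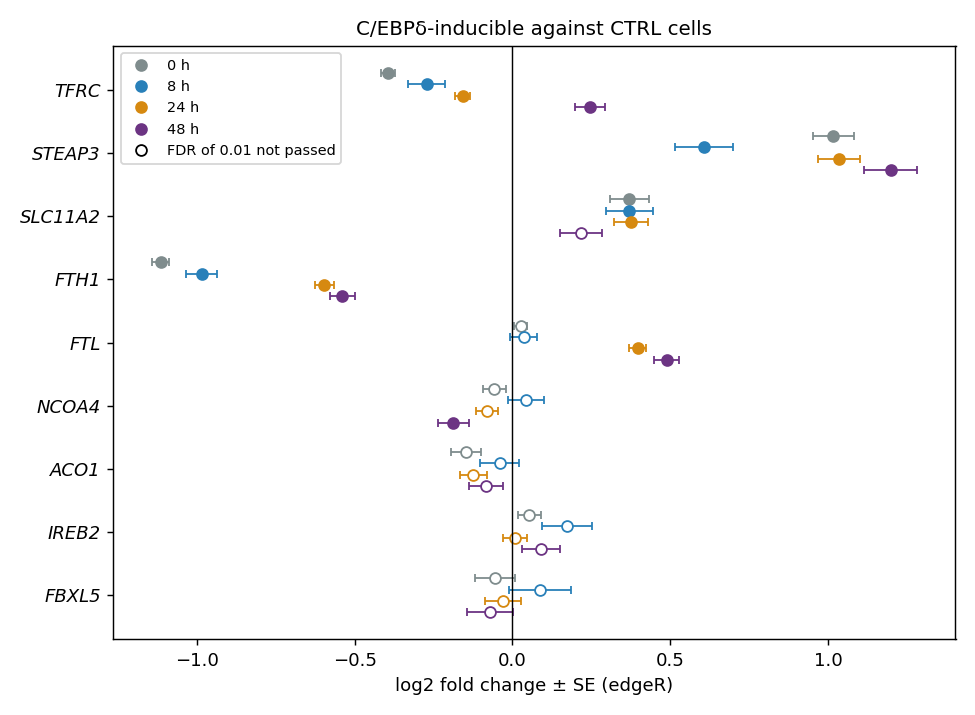
log2 fold change between the lines, C/EBPδ-inducible over CTRL, at each time (0, 8, 24 and 48 h, horizontal axis, edgeR, 3 against 3 libraries) for 9 members, with the standard error as bars and open symbols where the FDR of 0.01 was not passed. FTH1 lay at −1.11 at 0 h and at −0.54 at 48 h, STEAP3 between 0.61 and 1.20, and FTL moved from 0.03 to 0.49.

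TFRC (ENSG00000072274, chr3:196012511-196082153, GRCh38, minus strand) encodes the transferrin receptor, the main entry for transferrin-bound iron. In CTRL cells it stood at 1231, 1167 and 1212 CPM at 0 h, at 889, 985 and 1062 CPM at 8 h, at 1153, 1136 and 1122 CPM at 24 h and at 689, 781 and 777 CPM at 48 h. In C/EBPδ-inducible cells it stood at 916, 912 and 936 CPM at 0 h, at 816, 789 and 830 CPM at 8 h, at 1015, 1022 and 1031 CPM at 24 h and at 900, 869 and 899 CPM at 48 h. Libraries of the lines did not overlap at any time, and the order turned, with CTRL cells higher up to 24 h and lower at 48 h. The log2 fold change between the lines was −0.39 (SE 0.0237, adjusted p = 3.61e-11, edgeR) at 0 h, −0.27 (SE 0.0593, adjusted p = 0.003, edgeR) at 8 h, −0.16 (SE 0.0236, adjusted p = 2.63e-06, edgeR) at 24 h and 0.25 (SE 0.0478, adjusted p = 0.000726, edgeR) at 48 h. The call at 8 h was lost without CTRL replicate 2 (adjusted p = 0.0144, edgeR) and without C/EBPδ-inducible replicate 1 or 2 (adjusted p = 0.016 and 0.0246, edgeR). Without the libraries that stood apart, CTRL replicates 1 and 3 and C/EBPδ-inducible replicate 3, left out singly, it held.

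TFRC also changed with time in each line. In CTRL cells it fell by 0.69 on the log2 scale at 48 h (SE 0.0448, adjusted p = 3.63e-07, edgeR), and at 8 and 24 h its log2 fold changes were −0.27 (adjusted p = 0.0241, edgeR) and −0.08 (adjusted p = 0.0295, edgeR), which did not pass. The 8 h value passed without CTRL replicate 1 at 8 h (−0.22, adjusted p = 0.000768, edgeR) or without replicate 3 (−0.34, adjusted p = 0.00265, edgeR), both among the libraries that stood apart. TFRC fell in C/EBPδ-inducible cells by 0.19 at 8 h (SE 0.0219, adjusted p = 4.73e-07, edgeR) and rose by 0.15 at 24 h (SE 0.0232, adjusted p = 1.75e-05, edgeR). At 48 h its log2 fold change was −0.06 (adjusted p = 0.0486, edgeR). In 1 model of all 24 libraries the rise at 24 h no longer passed (adjusted p = 0.0218, edgeR).

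STEAP3 (ENSG00000115107, chr2:119223831-119265652, plus strand) encodes an endosomal reductase that converts ferric iron released from transferrin to ferrous iron. STEAP3 stood in CTRL cells at 19, 21.7 and 18.3 CPM at 0 h, at 22.9, 20.8 and 20.2 CPM at 8 h, at 18.4, 18 and 19.5 CPM at 24 h and at 15, 13.4 and 15.3 CPM at 48 h. The C/EBPδ-inducible libraries stood at 40.8, 38.7 and 40.4 CPM at 0 h, at 36.1, 30 and 31.4 CPM at 8 h, at 40.5, 34.5 and 40.2 CPM at 24 h and at 36.2, 32.8 and 31.4 CPM at 48 h. Every C/EBPδ-inducible library was above every CTRL library. The log2 fold change between the lines was 1.02 (SE 0.064, adjusted p = 7.68e-11, edgeR) at 0 h, 0.61 (SE 0.0911, adjusted p = 0.000226, edgeR) at 8 h, 1.03 (SE 0.0671, adjusted p = 8.6e-13, edgeR) at 24 h and 1.20 (SE 0.084, adjusted p = 5.31e-08, edgeR) at 48 h. Of its exons, 11% overlap STEAP3-AS1 on the other strand, which had at most 10 counts in any library, and the strand setting of the counting is not given in the sources used here.

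STEAP3 fell in C/EBPδ-inducible cells by 0.30 on the log2 scale at 8 h (SE 0.06, adjusted p = 0.000365, edgeR) and by 0.27 at 48 h (SE 0.0567, adjusted p = 0.000331, edgeR). It fell in CTRL cells by 0.43 at 48 h (SE 0.0925, adjusted p = 0.00229, edgeR), which did not pass without CTRL replicate 2 at 0 h (−0.38, adjusted p = 0.0111, edgeR). Its change from 0 h to 8 h was lower in C/EBPδ-inducible than in CTRL cells by −0.42 (SE 0.115, adjusted p = 0.0419, edgeR), which did not pass.

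SLC11A2 (ENSG00000110911, chr12:50979401-51028566, minus strand) encodes the divalent metal transporter that moves ferrous iron out of the endosome. SLC11A2 averaged in CTRL cells 26.6 ± 0.93 CPM (SD, n = 3) at 0 h, 28 ± 1.47 at 8 h, 28.1 ± 1.02 at 24 h and 30.4 ± 1.32 at 48 h. The C/EBPδ-inducible means were 34.6 ± 2.76, 36.2 ± 1.93, 36.6 ± 0.818 and 35.5 ± 1.11 CPM at these times. It was higher in C/EBPδ-inducible cells, without overlap, at every time. The log2 fold change was 0.37 (SE 0.0626, adjusted p = 5.1e-05, edgeR) at 0 h, 0.37 (SE 0.0754, adjusted p = 0.00198, edgeR) at 8 h and 0.38 (SE 0.0544, adjusted p = 1.66e-06, edgeR) at 24 h, and 0.22 (adjusted p = 0.014, edgeR) at 48 h, which did not pass. The 48 h value passed without CTRL replicate 1 (0.25, adjusted p = 0.00588, edgeR). At 8 h it did not pass without CTRL replicate 2 (adjusted p = 0.0156, edgeR) or C/EBPδ-inducible replicate 2 (adjusted p = 0.0168, edgeR). SLC11A2 passed no test of time within a line.

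FTH1 (ENSG00000167996, chr11:61959718-61967634, minus strand) encodes the ferritin heavy chain, which oxidises iron for storage. In CTRL cells it stood at 546, 557 and 565 CPM at 0 h, at 568, 535 and 528 CPM at 8 h, at 580, 556 and 588 CPM at 24 h and at 612, 629 and 588 CPM at 48 h. In C/EBPδ-inducible cells it stood at 252, 267 and 257 CPM at 0 h, at 280, 275 and 270 CPM at 8 h, at 386, 389 and 370 CPM at 24 h and at 409, 427 and 425 CPM at 48 h. Every C/EBPδ-inducible library stayed below every CTRL library, and the distance narrowed with time. The log2 fold change between the lines was −1.11 (SE 0.028, adjusted p = 4.63e-17, edgeR) at 0 h, −0.98 (SE 0.0498, adjusted p = 3.01e-08, edgeR) at 8 h, −0.60 (SE 0.03, adjusted p = 4.85e-15, edgeR) at 24 h and −0.54 (SE 0.0394, adjusted p = 8.11e-08, edgeR) at 48 h. Left out singly, no library changed the 8 h call (−1.01 to −0.96).

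Within C/EBPδ-inducible cells FTH1 rose by 0.56 on the log2 scale at 24 h (SE 0.0305, adjusted p = 7.37e-13, edgeR) and by 0.69 at 48 h (SE 0.0293, adjusted p = 3.53e-16, edgeR). At 8 h its log2 fold change was 0.08 (adjusted p = 0.0385, edgeR), and in CTRL cells it was −0.01 at 8 h, 0.05 at 24 h and 0.13 at 48 h (adjusted p = 0.957, 0.275 and 0.0136, edgeR). Of the FTH1 exons, 63.2% overlap exons of BEST1 on the other strand. BEST1 stood at 1.81 to 7.55 CPM over all libraries. Without strand, reads in the shared exons could not be told apart, and since the strand setting is not given, how many FTH1 reads the overlap removed or added was not tested. FTH1 has 25 pseudogene rows in the table, whose counts came to 1.06 to 1.92% of those of FTH1, and summing them with FTH1 changed no FTH1 call.

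FTL (ENSG00000087086, chr19:48965309-48966879, plus strand) encodes the ferritin light chain, which supports formation of the iron core. FTL stood in CTRL cells at 1524, 1530 and 1551 CPM at 0 h, at 1598, 1478 and 1437 CPM at 8 h, at 1498, 1502 and 1545 CPM at 24 h and at 1515, 1362 and 1439 CPM at 48 h. The C/EBPδ-inducible libraries stood at 1542, 1585 and 1595 CPM at 0 h, at 1565, 1518 and 1549 CPM at 8 h, at 2089, 1937 and 1977 CPM at 24 h and at 2068, 2014 and 1978 CPM at 48 h. The lines overlapped at 0 and 8 h and were apart at 24 and 48 h. The log2 fold change between them was 0.03 (adjusted p = 0.293, edgeR) at 0 h, 0.04 (adjusted p = 0.556, edgeR) at 8 h, 0.40 (SE 0.0264, adjusted p = 1.53e-12, edgeR) at 24 h and 0.49 (SE 0.0396, adjusted p = 2.41e-07, edgeR) at 48 h. In contrast to FTH1, a difference before doxycycline did not pass the test.

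Within C/EBPδ-inducible cells FTL rose by 0.35 on the log2 scale both at 24 h (SE 0.0255, adjusted p = 1.51e-10, edgeR) and at 48 h (SE 0.0249, adjusted p = 1.06e-11, edgeR). In CTRL cells no FTL change passed, with the smallest adjusted p of 0.0647 (edgeR) at 48 h, where the log2 fold change was −0.10. Without CTRL replicate 1 at 48 h it passed (−0.14, adjusted p = 0.00149, edgeR). Its 16 pseudogene rows came to 1.51 to 1.86% of FTL counts, led by FTLP3 with 11621 counts against 755250 for FTL, and summing them changed no FTL call.

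The ratio of FTH1 to FTL counts within a library does not depend on scaling between libraries. CTRL cells had a ratio of 0.362 ± 0.00323 (SD, n = 3) at 0 h, 0.361 ± 0.00616 at 8 h, 0.379 ± 0.00871 at 24 h and 0.425 ± 0.0321 at 48 h. C/EBPδ-inducible cells had ratios of 0.164 ± 0.00377, 0.178 ± 0.00351, 0.191 ± 0.00855 and 0.208 ± 0.00898 at these times. As counted, the heavy chain was the smaller part of ferritin mRNA in both lines, and more so in C/EBPδ-inducible cells, without overlap between their libraries. The FTH1 overlap with BEST1 bears on the size of this ratio and was not tested. The sum of both chains was 2091 ± 23.1 CPM in CTRL and 1832 ± 33.1 CPM in C/EBPδ-inducible cells at 0 h, and 2048 ± 70.3 against 2440 ± 37.5 CPM at 48 h. The order of the lines in ferritin mRNA therefore turned between these times, although FTH1 alone stayed lower. TFRC counts per FTH1 count fell from a mean of 2.16 to 1.23 between 0 and 48 h in CTRL and from 3.57 to 2.12 in C/EBPδ-inducible cells, as values with no test.

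**Figure D3:**
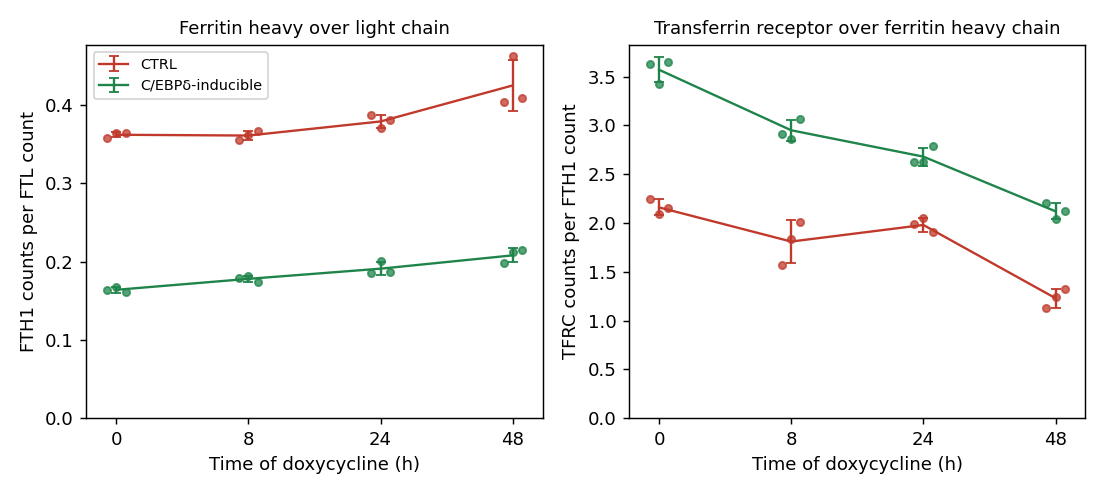
Counts of FTH1 per FTL count (left) and of TFRC per FTH1 count (right) in each library against hours of doxycycline, in CTRL (red) and C/EBPδ-inducible cells (green), with lines through the mean and SD (n = 3) and axes from 0. The heavy to light chain ratio lay at or above 0.355 in every CTRL library and at or below 0.215 in every C/EBPδ-inducible library.

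NCOA4 (ENSG00000266412, chr10:46005088-46030623, minus strand) encodes the receptor that brings ferritin to autophagosomes for degradation. It varied least of the expressed members and averaged between 157 and 179 CPM in the 8 groups. At 48 h it stood at 169, 185 and 182 CPM in CTRL and at 158, 154 and 159 CPM in C/EBPδ-inducible cells. It was then lower in C/EBPδ-inducible cells by −0.19 on the log2 scale (SE 0.0489, adjusted p = 0.00561, edgeR), which passed in 1 of the 6 fits that left out 1 library, the fit without CTRL replicate 1, and had an adjusted p of up to 0.0422 (edgeR, without C/EBPδ-inducible replicate 2) in the others. No other NCOA4 comparison passed.

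SLC40A1 (ENSG00000138449, chr2:189560590-189583758, minus strand) encodes ferroportin, the iron exporter. It held 55 counts in all 24 libraries together and did not pass the filter on low counts, so that it was tested in no comparison. More than 3 counts were found in 4 libraries, namely 7 in CTRL replicate 1 at 0 h, 6 in CTRL replicate 2 at 8 h, 20 in CTRL replicate 2 at 48 h and 4 in C/EBPδ-inducible replicate 1 at 48 h. A difference between groups was not detectable at this depth.

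ACO1 (ENSG00000122729, chr9:32384603-32454769, plus strand) encodes cytosolic aconitase, which becomes iron regulatory protein 1 when it lacks its iron-sulfur cluster. ACO1 averaged in CTRL cells 44.1 ± 0.959 CPM (SD, n = 3) at 0 h, 43.3 ± 0.63 at 8 h, 51.3 ± 0.96 at 24 h and 59.6 ± 1.59 at 48 h. The C/EBPδ-inducible means were 40.1 ± 0.68, 42.2 ± 0.937, 47.3 ± 0.706 and 56.3 ± 0.796 CPM at these times. ACO1 rose in both lines by 48 h, by 0.43 on the log2 scale in CTRL (SE 0.0564, adjusted p = 6.85e-05, edgeR) and by 0.48 in C/EBPδ-inducible cells (SE 0.0454, adjusted p = 1.91e-09, edgeR). At 24 h it rose by 0.22 (SE 0.0446, adjusted p = 0.00219, edgeR) and 0.24 (SE 0.0456, adjusted p = 0.000273, edgeR). The CTRL call at 24 h was lost without CTRL replicate 3 at 0 h (adjusted p = 0.0137, edgeR) and without replicate 1 or 2 at 24 h (adjusted p = 0.0159 and 0.0226, edgeR). The difference between the lines was within −0.15 to −0.04 and passed at no time, while the lines did not overlap at 0, 24 and 48 h.

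IREB2 (ENSG00000136381, chr15:78437431-78501453, plus strand) encodes iron regulatory protein 2, which is degraded when iron is plentiful. Its libraries ranged from 88.7 to 132 CPM. It rose in C/EBPδ-inducible cells from 108 ± 1.82 to 128 ± 3.94 CPM between 0 and 48 h, a log2 fold change of 0.23 (SE 0.0356, adjusted p = 5.63e-06, edgeR). In CTRL cells the means were 103 ± 3.63 and 120 ± 9.58 CPM, a log2 fold change of 0.21 (SE 0.0599, adjusted p = 0.0139, edgeR) that did not pass. Without CTRL replicate 1 at 48 h it passed (0.27, adjusted p = 0.000308, edgeR). The lines overlapped at every time.

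FBXL5 (ENSG00000118564, chr4:15604381-15681679, minus strand) encodes the iron-binding subunit of the ubiquitin ligase that targets the iron regulatory proteins. It stood at 34.1, 28.8 and 33.4 CPM at 0 h and at 39.5, 44.4 and 44.6 CPM at 48 h in CTRL cells. In C/EBPδ-inducible cells it stood at 30.3, 31.1 and 32 CPM at 0 h, at 38.3, 34.7 and 38.9 CPM at 8 h, at 30.1, 33.7 and 30.4 CPM at 24 h and at 38.6, 43.9 and 39.7 CPM at 48 h. It rose at 48 h in both lines, by 0.41 on the log2 scale in CTRL (SE 0.0773, adjusted p = 0.00104, edgeR) and by 0.38 in C/EBPδ-inducible cells (SE 0.0562, adjusted p = 2.94e-06, edgeR). The CTRL call was lost without CTRL replicate 2 at 0 h (0.32, adjusted p = 0.0115, edgeR). At 8 h it rose by 0.25 in C/EBPδ-inducible cells (SE 0.0548, adjusted p = 0.000922, edgeR), a call that was lost without C/EBPδ-inducible replicate 1 at 8 h (adjusted p = 0.0105, edgeR) and in 1 model of all 24 libraries (adjusted p = 0.0194, edgeR). Without C/EBPδ-inducible replicate 3 at 8 h, which stood apart, it held. No difference between the lines passed.

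Counted over time within CTRL cells, 0 of the 9 members were DEGs at 8 h by edgeR, where 1.7% of 15253 genes were, with 1 member (TFRC) at an unadjusted p under 0.05 and 1 called by DESeq2. At 24 h 1 member was a DEG against 6.06% of 15196 genes, and at 48 h 4 were against 30% of 15294. Within C/EBPδ-inducible cells, 3 members were DEGs at 8 h against 30.5% of 15395 genes, 4 at 24 h against 15.5% of 15560, and 6 at 48 h against 38.7% of 15394. At 24 h all 4 were higher than at 0 h (TFRC, FTH1, FTL and ACO1), with a median log2 fold change over the 9 members of 0.09 beside 0.00 over all genes. At 48 h 5 were higher (FTH1, FTL, IREB2, ACO1 and FBXL5) and STEAP3 was lower, with a median of 0.23 beside 0.01. The comparisons with 0 h of a line share its 0 h libraries.

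The interaction of line and time asks whether the change from 0 h differed between the lines. At 8 h, 0 of the 9 members passed by edgeR, where 1.66% of 16228 genes did, with 2 members (FTH1 and STEAP3) at an unadjusted p under 0.05. DESeq2 called 0 as well. At 24 h 3 members passed against 5.84% of 16224 genes, and at 48 h 3 passed against 5.54% of 16306, TFRC, FTH1 and FTL each time and each with a positive estimate. The change of FTH1 was larger in C/EBPδ-inducible cells by 0.52 on the log2 scale at 24 h (SE 0.0411, adjusted p = 1.67e-09, edgeR) and by 0.55 at 48 h (SE 0.0476, adjusted p = 2.16e-07, edgeR). For FTL the differences were 0.37 (SE 0.0343, adjusted p = 2.3e-08, edgeR) and 0.44 (SE 0.0465, adjusted p = 2.97e-06, edgeR). These ferritin estimates came with a rise in C/EBPδ-inducible cells beside values in CTRL cells that passed no test. For TFRC the differences were 0.24 (SE 0.0314, adjusted p = 6.3e-06, edgeR) and 0.62 (SE 0.0555, adjusted p = 3.92e-07, edgeR), and that at 48 h came with the fall in CTRL cells. In 1 model of all 24 libraries the TFRC difference at 24 h did not pass (0.23, adjusted p = 0.0271, edgeR). Among the other 6 members, the largest estimates at 24 and 48 h were −0.17 (SE 0.0927) for SLC11A2 and 0.16 (SE 0.11) for STEAP3, both at 48 h. At the genes with an iron-responsive motif that were tested, namely FTH1, FTL and TFRC, the 5′ and the 3′ position came with estimates of the same sign.

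**Figure D4:**
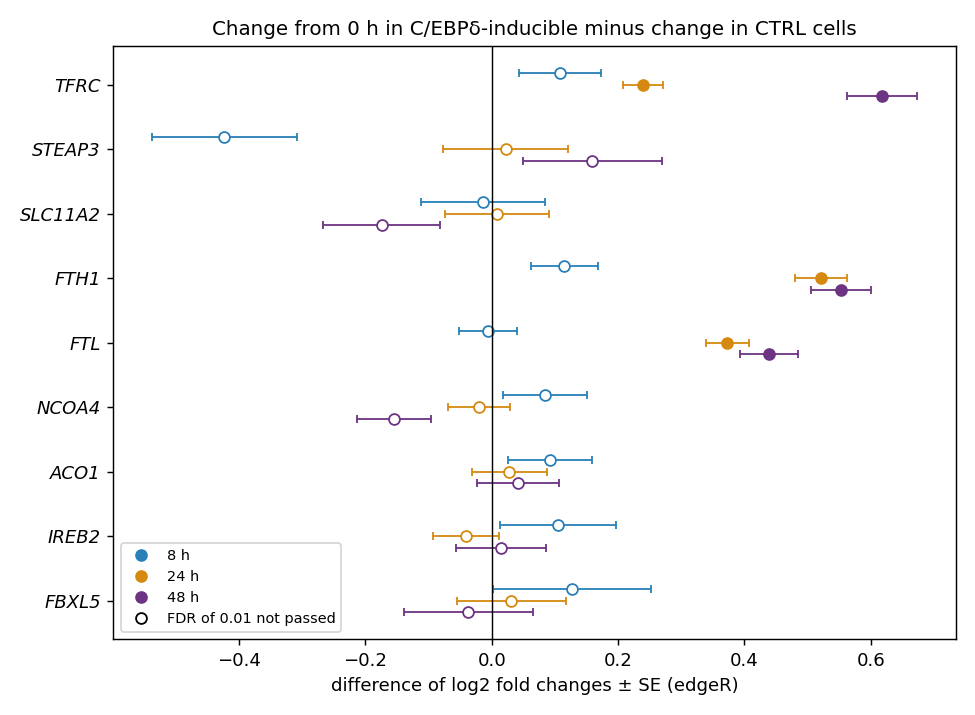
Change from 0 h in C/EBPδ-inducible cells minus the change in CTRL cells at 8, 24 and 48 h (horizontal axis, log2 scale, edgeR interaction over 12 libraries each) for 9 members, with the standard error as bars and open symbols where the FDR of 0.01 was not passed. TFRC, FTH1 and FTL passed at 24 and 48 h, with estimates from 0.24 to 0.62, and the other 6 members lay between −0.17 and 0.16 at these times.

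The promoters of the members were searched because C/EBP proteins bind DNA through a known palindrome. In RefSeq promoters of 300 bases on GRCh38, the letters TTGCNNAA on either strand occurred in 10.5% of 35116 promoters and the full palindrome TTGCGCAA, which the first motif includes, in 0.151%. For 9 members 14 promoters were listed, and 0 of them held either motif, which says only that these letters are not in these windows. The promoter of FTH1 was not analysed here.

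The genes whose levels followed each member most closely were taken over the 24 libraries from 12179 genes, by Pearson's r of log2 CPM after subtraction of each line's mean. The libraries share their time points and lines, so that r is a description. For FTH1 they were SLC2A3, a glucose transporter (r = 0.977, or 0.538 without the subtraction), and RBM47, an RNA-binding protein (0.968, or 0.475). For FTL they were NAB2, a transcriptional corepressor (0.942, or 0.807), and CTSD, the lysosomal protease cathepsin D (0.931, or 0.919). For TFRC they were HSPD1, the mitochondrial chaperonin (0.934, or 0.904), and TFB2M, a mitochondrial transcription factor (0.932, or 0.348). The genes were KDM5B (0.969, or 0.888) and NIPSNAP1 (0.965, or 0.936) for ACO1, and CAMLG (0.938, or 0.94) and PHLDA1 (0.936, or 0.843) for IREB2. For FBXL5 they were RASA1 (0.936, or 0.935) and DNAJC13 (0.917, or 0.821). They were LRRC14 (0.899, or 0.525) and MLPH (0.897, or 0.986) for STEAP3, and SIRT1 (0.819, or 0.041) and FGFR1OP2 (0.81, or 0.778) for NCOA4. For SLC11A2 they were CEP41 (0.713, or 0.212) and APPL2 (0.707, or 0.884). Among the members themselves, FTH1 and FTL gave r = 0.872 within lines and −0.266 without the subtraction. FTH1 was lower at every time in the line in which FTL was higher at 24 and 48 h. IREB2 and FBXL5 gave r = 0.846 within lines and 0.787 without the subtraction.

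A wider set of 91 iron genes in 7 lists, which leaves out the members, was read in the same fits. At 24 h, 50 of the 71 tested (70.4%) differed between the lines, beside 46.9% of all genes, 26 upward and 24 downward, with a median log2 fold change of 0.05 beside 0.01 over all genes. At 0 h, 41 of 71 (57.7%) did, beside 43.9% of all genes, 20 upward and 21 downward. In the interaction at 24 h 8 of 72 (11.1%) passed, beside 5.84% of all genes, 6 with a positive and 2 with a negative estimate. At 48 h 8 of 72 (11.1%) passed beside 5.54%, 5 positive and 3 negative, and at 8 h 2 of 71 (2.82%) beside 1.66%. The lists were chosen with earlier results known, and nothing particular to them is read from these shares. Calls of named genes that were lost when libraries were left out singly are given beside them. The genes named from these lists are those that passed an interaction and, per list, the 2 with the smallest adjusted p between the lines at 24 h.

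Among genes of transferrin and ferric iron uptake, 8 of 10 differed at 24 h, beside 46.9% of all genes, 2 upward and 6 downward. SLC39A8, a zinc and iron importer of the plasma membrane, averaged 202 ± 14.8 CPM (SD, n = 3) in CTRL and 51 ± 1.19 CPM in C/EBPδ-inducible cells at 0 h, and 177 ± 2.55 and 28.9 ± 2.34 CPM at 24 h. It was lower by −2.62 on the log2 scale at 24 h (SE 0.0463, adjusted p = 7.64e-25, edgeR). It passed the interaction at 8 h (0.75, adjusted p = 0.00189, edgeR), when it was low in CTRL cells (97.2, 118 and 135 CPM), though not without C/EBPδ-inducible replicate 1 at 8 h (adjusted p = 0.0105, edgeR), and with the opposite sign at 24 h (−0.62, adjusted p = 9.75e-07, edgeR) and 48 h (−0.64). The related importer SLC39A14 was higher by 0.63 at 24 h (SE 0.0277, adjusted p = 2.37e-16, edgeR). The pair of related importers thus differed between the lines in opposite directions.

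In iron storage, ferritinophagy and its chaperones, 6 of 8 genes differed at 24 h, beside the same 46.9%, 4 higher and 2 lower. The autophagy receptor SQSTM1 was higher by 0.60 (SE 0.0391, adjusted p = 8.62e-13, edgeR) and the autophagy protein MAP1LC3B lower by −0.67 (SE 0.0379, adjusted p = 4.6e-14, edgeR). In the interaction ATG7, which is needed to form autophagosomes, passed at 24 h with 0.47 (SE 0.0747, adjusted p = 8.45e-05, edgeR), SQSTM1 at 24 h with 0.26 (SE 0.0517, adjusted p = 0.00132, edgeR) and MAP1LC3B at 8 h with 0.37 (SE 0.0763, adjusted p = 0.00943, edgeR). The MAP1LC3B call held in 2 of 12 fits that left out 1 library. Of iron export and systemic control, 9 genes were listed and 2 tested, both higher where 46.9% of all genes differed, BMP6, a ligand that drives hepcidin in the liver, by 2.02 (SE 0.146, adjusted p = 8.02e-12, edgeR) and ERFE, an antagonist of such ligands, by 0.42 (SE 0.122, adjusted p = 0.00438, edgeR), a call that held in 3 of 6 fits that left out 1 library.

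Of other mRNAs with a described iron-responsive element, 5 of 6 differed at 24 h, beside 46.9% of all genes, 3 higher and 2 lower. EPAS1, which encodes hypoxia-inducible factor 2α, was higher by 1.86 (SE 0.199, adjusted p = 1.08e-08, edgeR), although its CTRL libraries disagreed, with 1.97, 2.51 and 6.52 CPM against 14.2, 13.1 and 13.6 CPM in C/EBPδ-inducible cells. Left out singly, libraries moved it between 1.59 and 2.59. CDC42BPA, a kinase of the cytoskeleton, was higher by 0.40 (SE 0.0328, adjusted p = 7.28e-11, edgeR).

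Of heme synthesis, transport and breakdown, 12 of 19 genes differed at 24 h, beside 46.9% of all genes, 6 in each direction. ALAS1, the first and rate-limiting enzyme of heme synthesis outside red cells, averaged 63.2 ± 1.28 CPM at 0 h and 93.9 ± 2.18 CPM at 24 h in C/EBPδ-inducible cells, and 68.3 ± 1.63 and 68.1 ± 1.28 CPM in CTRL cells. Its interaction estimate at 24 h was 0.58 (SE 0.0527, adjusted p = 1.94e-08, edgeR), and CPOX, a later enzyme of the pathway, passed with 0.44 (SE 0.0831, adjusted p = 0.000711, edgeR). BACH1, a heme-binding repressor of transcription, passed with −0.36 at 24 h (SE 0.0668, adjusted p = 0.000495, edgeR) and −0.62 at 48 h (SE 0.0848). FLVCR1, a heme exporter, passed at 48 h with 0.43 (SE 0.0897, adjusted p = 0.00363, edgeR), which held in 6 of 12 fits that left out 1 library. Between the lines at 24 h, HMOX1, heme oxygenase, was higher by 1.00 (SE 0.0653, adjusted p = 9.81e-13, edgeR) and ALAD, the second enzyme of the pathway, lower by −1.12 (SE 0.0819, adjusted p = 8.87e-12, edgeR).

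Of mitochondrial iron import and iron-sulfur cluster assembly, 13 of 17 genes differed at 24 h, beside 46.9% of all genes, 7 higher and 6 lower. SLC25A37, the mitochondrial iron importer mitoferrin, was higher by 0.53 (SE 0.0377, adjusted p = 5.42e-12, edgeR) and the assembly factor ISCA2 lower by −0.98 (SE 0.081, adjusted p = 1.05e-10, edgeR). The mitochondrial chaperone HSPA9 passed the interaction at 24 h with 0.14 (SE 0.0324, adjusted p = 0.00586, edgeR) and at 48 h with 0.20 (SE 0.0412, adjusted p = 0.00316, edgeR). These calls held in 4 and 9 of 12 fits that left out 1 library. Of cytosolic iron-sulfur cluster assembly, 4 of 9 differed at 24 h, near the 46.9% of all genes, 2 in each direction, with CIAO2A higher by 0.28 (SE 0.0576, adjusted p = 0.000157, edgeR) and the reductase NDOR1 lower by −0.51 (SE 0.0608, adjusted p = 7.14e-08, edgeR).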

How the data were processed

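RNA-sequencing counts of 24 MIA PaCa-2 libraries in 8 groups of 3 were used. The deposited values are whole-number counts per gene, without normalization or pooling of replicates. The authors depleted ribosomal RNA, trimmed reads with Trimmomatic, used HISAT2 for alignment to GRCh38, and obtained gene counts with HTSeq. The submitters' processing notes and the methods name different versions of the first pair of tools. How reads that match several genes were treated is not given in the sources used here. Members were matched by symbol through GENCODE 44, which named 56558 of 60675 identifiers.

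Counts were TMM-scaled and tested in R 4.3.3 by edgeR 4.0.16 (quasi-likelihood, two-sided) in models of only the groups compared, after filterByExpr. A gene was a DEG at a Benjamini-Hochberg FDR under 0.01 over all genes tested. The smallest two-sided p of an exact permutation test on 3 against 3 libraries is 0.1. The fits were tested on simulated counts. Depth ran from 12731237 to 22598595 counts per library. Standard errors (SE) are the absolute log2 fold change over the square root of the F statistic. The 13 comparisons were 4 between the lines, 6 of time within a line and 3 interactions. In the comparison of CTRL 24 h with 0 h, same-numbered libraries deviated together (r = 0.115, 0.131 and 0.141 across genes). The replicate numbers come from the labels. The blocked fit changed no member's call there.

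Alternatives were DESeq2 1.42.0, RLE size factors, no filter on low counts, at least 10 counts in every library, 1 model of all 24 libraries, the replicate block, an FDR of 0.05, summing ferritin counts with their pseudogenes, an analysis of variance on log2(CPM + 1) at 24 h after the study's choice, and leaving out each library, which was chosen after seeing the data for the wider lists. The members and lists were chosen with earlier results of these data known. The genes named are all members, the wider-list genes passing an interaction or with the 2 smallest adjusted p per list at 24 h, and the 2 genes closest to each member. Some genes that the rule selects are not reported here. Beyond this rule, CEBPD, overlapping genes, pseudogenes and cell type markers were read as checks.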

Additional observations from a re-analysis of the deposited data

Results flagged for a closer look

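The change from 0 h differed between the lines, by the edgeR interaction test, for 3 of the 9 members tested at 24 h and at 48 h. The share over all genes was 5.84% of 16224 at 24 h and 5.54% of 16306 at 48 h. At 8 h 0 of the 9 members passed. For FTH1 the difference (C/EBPδ-inducible minus CTRL) was 0.521 at 24 h and 0.553 at 48 h on the log2 scale, for FTL 0.373 and 0.439, and for TFRC 0.24 and 0.618. Leaving out each library in turn gave 0.498 to 0.548 and 0.529 to 0.576 for FTH1, 0.345 to 0.392 and 0.401 to 0.479 for FTL, and 0.227 to 0.264 and 0.563 to 0.649 for TFRC, and all of these fits passed. For TFRC at 24 h, the model of all 24 libraries gave 0.232 (adjusted p = 0.0271, edgeR), which did not pass.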

How the results depend on the processing

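Of 1088 values of single members under another setting, 1051 kept their side of the threshold, 8 lost the call and 29 gained it. A turn of direction with a call in either fit occurred in 0, and turns without a call count among the 1051. Leaving out libraries entered here only through the fits with the lowest and highest log2 fold change. More calls were lost in the other fits, as given with each gene. The number of members called moved by more than 1.5 times in these cases. In CTRL cells at 8 h against 0 h it went from 0 to 1 with DESeq2, without the filter, in 1 model of all 24 libraries and at an FDR of 0.05, and ranged from 0 to 1 when libraries were left out singly. In CTRL cells it went from 1 to 2 at 24 h and from 4 to 7 at 48 h at an FDR of 0.05, with ranges of 0 to 2 and 2 to 6 when libraries were left out. Between the lines at 8 h that range was 2 to 4. In the interaction at 8 h it went from 0 to 1 (STEAP3) without the filter and at an FDR of 0.05. The cause was not tested. Calls gained by leaving out 1 library were ACO1 between the lines at 0 h (without CTRL replicate 1, −0.17), SLC11A2 between the lines at 48 h (without CTRL replicate 1, 0.25), TFRC in CTRL cells at 8 h (without replicate 1 or 3 at 8 h, −0.22 and −0.34) and at 24 h (without replicate 2 at 0 h, −0.10), and FTL and IREB2 in CTRL cells at 48 h (without replicate 1 at 48 h, −0.14 and 0.27).

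With the replicate block the number of members called was 3 for CTRL cells at 48 h, where STEAP3 missed (adjusted p = 0.0103, edgeR), and 6 between the lines at 48 h, where SLC11A2 passed (adjusted p = 0.00888, edgeR). The block changed no other member's call. Apart from CTRL cells at 24 h, same-numbered libraries shared only a number (mean r from −0.0695 to 0.0459).

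Over all genes, counts of DEGs moved by more than 1.5 times for CTRL cells at 8 h (259, against 403 with DESeq2, 843 without the filter, 1229 in the model of all 24 libraries and 87 with the replicate block), for C/EBPδ-inducible cells at 8 h (4693 against 3127 in the model of all libraries), for CTRL cells at 24 h (921 against 582 in that model), for the interaction at 8 h (269 against 936 without the filter, 441 in that model and 162 with the block) and at 24 h (948 against 603 in that model), and between the lines at 24 h (7360 against 4317 by analysis of variance). Left out singly, libraries moved it to between 92 and 774 for CTRL cells at 8 h (774 without CTRL replicate 1 at 8 h), between 505 and 1104 for CTRL cells at 24 h (505 without CTRL replicate 2 at 24 h) and between 131 and 1196 for the interaction at 8 h (1196 without CTRL replicate 3 at 8 h). Depth limits SLC40A1, which had too few counts for the filter.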
